A study of Mus musculus with 16 samples.

Results

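The response of Hey2 knockout smooth muscle cells to platelet-derived growth factor BB (PDGF-BB) was examined in 6 of the 16 arrays of the series, chosen by genotype and time. The cells were cultured mouse aortic smooth muscle cells of a mixed C57BL/6 and 129SvJ background at passage 10 to 20, and they lacked Hey2, a transcriptional repressor that acts downstream of Notch receptors. Per the labels, the cells were digested out of aortas after removal of the adventitia, and their identity rested on stains for calponin and the alpha actin of smooth muscle. Cultures were kept for 48 h in 0.4% fetal calf serum and then given 5 ng/ml human PDGF-BB. The arrays at 0, 15 and 30 min formed the early window (n = 3) and those at 120, 180 and 240 min the late window (n = 3). The knockout arrays at 60 and 480 min were used as further points of the course. Wild-type arrays of the same 6 times, from cells of the same background, passage and treatment, entered the normalization and the comparison of responses. The wild-type arrays labelled 60 and 480 min ran against the order of time (Fos read 212 and 7703 there, against 6380 and 638 in the knockout) and were used only in the normalization. Each array was a different time point, and the number of animals or isolates behind it is unstated, so p-values measured only how far the times of a window spread, part of which may be technical. No course of starved cells given medium alone was analysed here, so PDGF-BB and time after the medium change cannot be told apart.

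PDGF-BB binds the receptor tyrosine kinases PDGFRα and PDGFRβ, which activate the Ras, MAP kinase and phosphatidylinositol 3-kinase pathways. Transcripts of immediate-early transcription factors appear first and decay quickly, and delayed genes for feedback inhibitors, secreted factors, proteases and growth follow. In smooth muscle cells PDGF-BB is known for driving division and migration and for lowering contractile gene expression, while FoxO factors, which phosphatidylinositol 3-kinase signalling inhibits, promote growth arrest.

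Values are normalized array signals on a linear scale, and differences are late minus early means of log2(signal + 4.856), where the added offset keeps dim probe sets from dominating. A gene was tested when its signal exceeded 16 on at least 3 of the 6 arrays, and it was called at a Benjamini-Hochberg adjusted p under 0.05 in limma, a linear model with variances shared across genes. Before normalization the 2% trimmed mean of the 6 arrays ran from 187 to 342.5, with the 240 min array the brightest. The ratio of 3' to 5' signal, a measure of RNA and labelling quality, was 1.95 to 3.71 for Actb in the early arrays and 1.54 to 2.44 in the late ones. For Gapdh it was 3.19 to 5.65 and 2.44 to 4.64, and the part of this shift in the results below was not tested. Of 23 smooth muscle contractile genes on the array, 15 were above 16 in all 6 arrays, but Myh11 and Myocd, which define differentiated smooth muscle, were above it in none. Of 15 epithelial and mesothelial markers, 13 were above 16 in all 6 arrays.

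Hey2 itself was dim in these cells. Its only probe set read 34.3, 63.3 and 42.2 in the early arrays and 23.3, 34.8 and 41.0 in the late ones, the windows overlapped, and the difference was not called (log2 difference -0.43, SE 0.28, limma adjusted p = 0.292). Whether the probe set lies inside the deletion is unstated in the labels, so these readings check nothing about the genotype. The receptor genes differed. Pdgfrb, the main receptor for PDGF-BB in smooth muscle, read 3668, 3341 and 3235 early and 2992, 3698 and 3283 late (log2 difference -0.04, SE 0.09, not called). Pdgfra read 165, 176 and 189 early and 70.1, 62.6 and 64.2 late, with every late array under every early one (log2 difference -1.36, SE 0.14, limma adjusted p = 0.000248). The other Pdgfra probe sets gave -0.34 and -0.30 and were not called.

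By 120 to 240 min, 25.1% of the genes tested in the knockout had a different signal from the first 30 min. Of 12775 genes tested, 1383 were called higher late (10.8%) and 1829 lower late (14.3%), with a median difference of -0.08 over all genes. Increases were the larger: 385 genes rose at least 2-fold and 68 at least 4-fold, against 241 and 17 that fell by as much. All 3 late arrays lay above all 3 early arrays for 2095 genes (16.4%) and below them for 3333 (26.1%), and 31 called genes had overlapping windows. Without the 0, 15 or 180 min array the called genes numbered 1861, 2140 and 2043 in place of 3212. The direction of small changes depended on the scale: 43.1% of called genes were higher late after normalization, and 83.5% of 1304 called genes with the signals as deposited, where the median over all genes was 0.15.

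**Figure D1:**
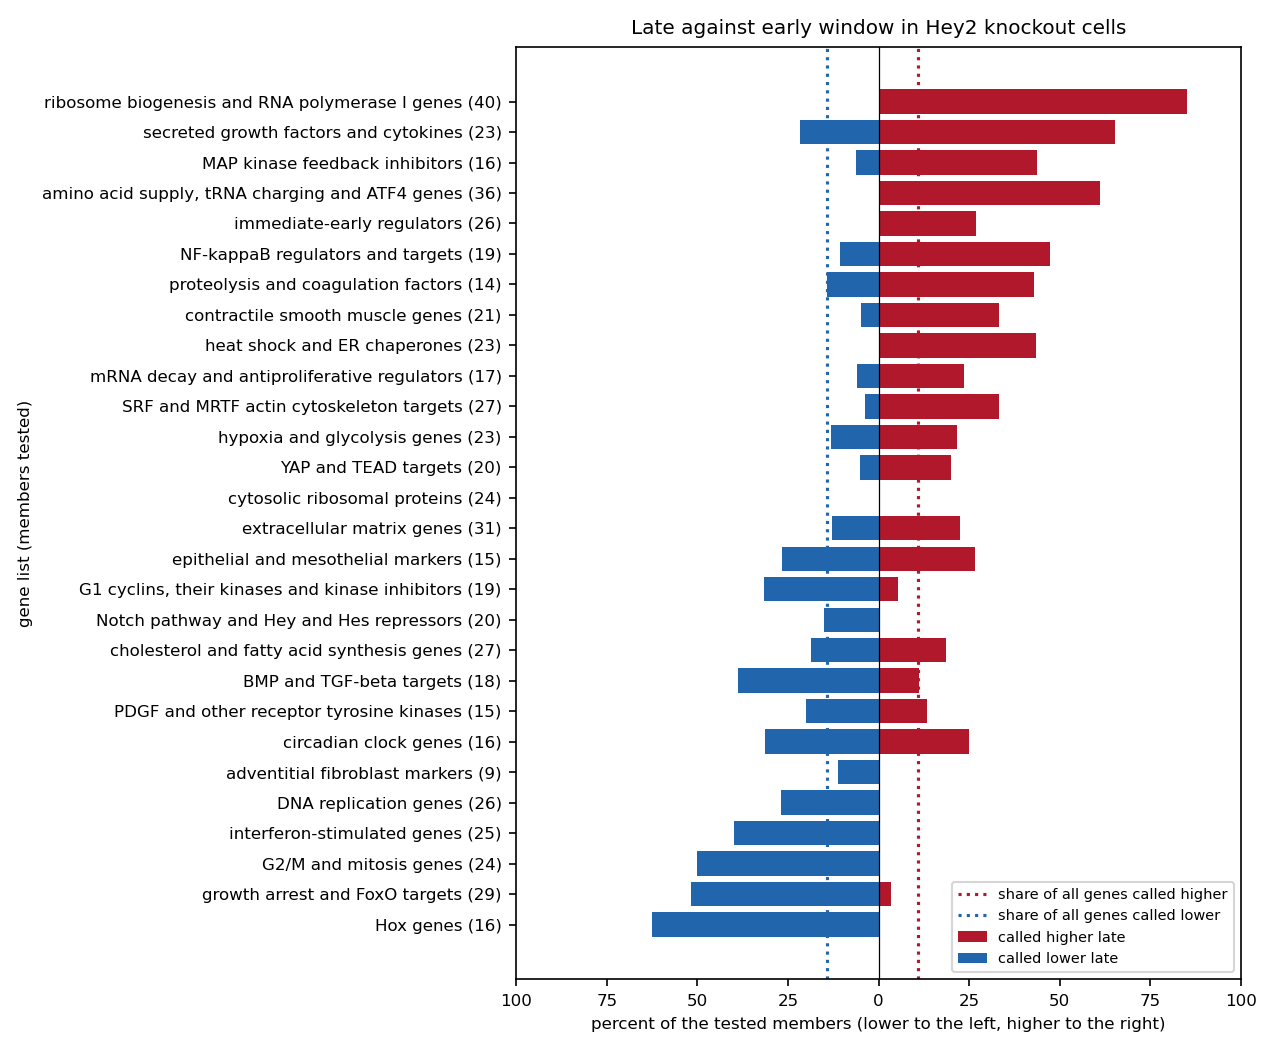
Share of the tested members of each gene list called higher (red, to the right) or lower (blue, to the left) in the late window, in percent; the number of members tested stands in brackets, and dotted lines give the shares over all 12775 genes (10.8% higher, 14.3% lower). Ribosome biogenesis, secreted factor and amino acid supply lists reach farthest to the right, and Hox, growth arrest and mitosis lists farthest to the left.

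The immediate-early genes fell into 2 kinds in the window comparison. Fos, a subunit of the AP-1 transcription factor, read 1267 at 0 min, 5292 at 15 min, 8204 at 30 min, 6380 at 60 min, and then 1586, 2403 and 2453 in the late arrays. Egr1, a zinc finger activator, read 1431, 6163 and 9814 early, 10167 at 60 min and 4713, 5033 and 7087 late. Both had therefore risen and begun to fall inside the comparison, their windows overlapped, and neither was called (log2 differences -0.85 and 0.32). Egr2, which read 21.3, 172 and 3685 early and 806, 572 and 409.8 late, Nr4a1 and Atf3 behaved in the same way and were not called either. Without the 0 min array Fos was called lower (-1.64, limma adjusted p = 0.00202). Without the 30 min array Egr2 (3.09), Nr4a1 (2.60) and Atf3 (2.56) were called higher.

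Other members of the class were higher in all 3 late arrays than in all 3 early ones. Fosl1, another AP-1 subunit, read 65.7, 53.6 and 187 early, 1312 at 60 min and 2333, 2037 and 2311 late (log2 difference 4.59, SE 0.36, limma adjusted p = 5.99e-05). Nr4a3, an orphan nuclear receptor, read 9.22, 3.87 and 189.9 early and 1233, 937 and 412 late (log2 difference 4.77, SE 0.95, limma adjusted p = 0.0062), so its signal came down within the late window. Myc, a regulator of growth genes, read 368, 367 and 769 early and 1321, 1428 and 1893 late (log2 difference 1.69, SE 0.26). Klf10 (1.65), Maff (1.33), Ier5 (1.22) and Klf4 (0.61) also rose. The Ier5 call was lost without the 15 min array (1.09). All 26 immediate-early regulators had a higher signal at 30 than at 0 min. The share of all genes that did so was not counted. Over all genes the median signal relative to the early mean was 0.008 at 0 min and -0.019 at 30 min. In all, 7 of the 26 were called higher and none lower, with a median difference of 0.80. This count varied. Without the 30 min array 18 were called higher, without the 0 min array 7 higher and 3 lower, and with deposited signals 17 higher. With any 1 array left out, 6 to 18 were called higher. Over all alternatives other than the 2-fold test the range was 1 to 18. Of the 26, 17 had their highest signal of the 8 times at 60 min, against 9.45% of all genes tested.

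**Figure D2:**
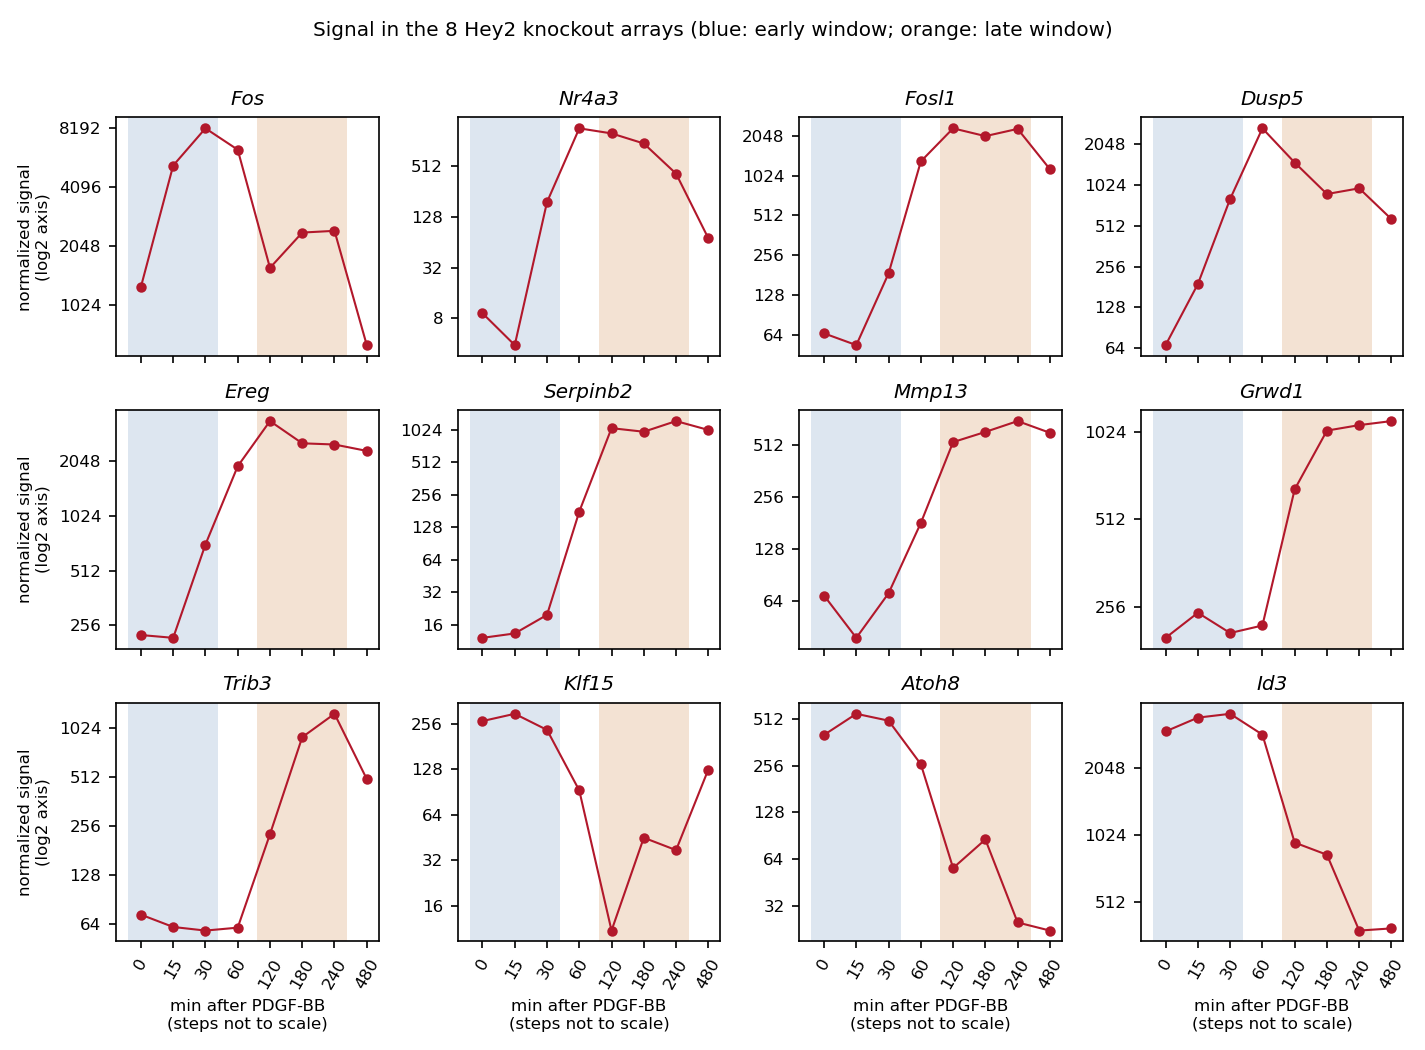
Normalized signal (log2 axis) of 12 genes in the 8 knockout arrays against time after PDGF-BB (steps not to scale), with the early window shaded blue and the late window orange; each point is 1 array. Fos peaks at 30 min and Nr4a3 and Dusp5 at 60 min, Serpinb2, Mmp13, Grwd1 and Trib3 are high from 120 min on, and Klf15, Atoh8 and Id3 are low there.

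Of 16 inhibitors of the MAP kinase pathway, which limit the signal that induces them, 7 were called higher and 1 lower, with a median of 0.92. All 16 had a higher signal at 30 than at 0 min, a share that was not counted over all genes. Their median course was highest at 60 min (1.06 above the early mean), where that of all genes was -0.05. Dusp4, a phosphatase of nuclear MAP kinases, read 737, 873 and 1066 early and 4068, 3275 and 2738 late (log2 difference 1.90, SE 0.16, limma adjusted p = 9.00e-05). Dusp10, which acts on p38 and JNK, read 127, 135 and 154 early and 855, 688 and 534 late (log2 difference 2.26, SE 0.18, limma adjusted p = 5.99e-05), and Dusp14 rose by 1.53. Errfi1, an inhibitor of the epidermal growth factor receptor, read 859, 995 and 3564 early, 9059 at 60 min and 7028, 5333 and 7129.9 late (log2 difference 2.15, SE 0.43). Spred2, which blocks Raf activation, read 961, 804 and 986 early and 2059, 1943 and 1792 late (log2 difference 1.07, SE 0.11). Dusp1, itself an immediate-early gene, read 3036, 4646 and 7879 early and 2806, 2456 and 2559.7 late and was the gene called lower (log2 difference -0.88, SE 0.26), a call lost without the 15, 180 or 240 min array (-0.91 to -0.84). Spry4, a Sprouty inhibitor, read 618, 452 and 678 early and 441, 553 and 611 late, with overlapping windows (log2 difference -0.11, SE 0.18, not called).

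Dusp5, a nuclear phosphatase specific for ERK, rose early and stayed above its early readings: it read 67.6, 191 and 809 early, 2683 at 60 min and 1500.4, 879 and 969 late (log2 difference 2.27, SE 0.67, limma adjusted p = 0.0337). The call was lost without any single array other than that at 30 min, with differences of 1.45 to 2.42. Its promoter held 2 adjoining CArG boxes, the element bound by serum response factor, and is shown for that pair, which lies 82 to 63 bases before the RefSeq start. The stretch covers the 120 bases before the start (chr19:53529025-53529144, plus strand, GRCm38.p6), written 5' to 3' with the boxes in capitals.
Dusp5: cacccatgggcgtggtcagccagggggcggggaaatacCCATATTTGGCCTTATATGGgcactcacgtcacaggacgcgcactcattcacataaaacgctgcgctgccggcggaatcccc
In windows of 300 bases around the start (250 before and 50 after), searched on both strands, a CArG box was present in 1.34% of 8155 tested genes with a single listed promoter. It was present in 1.71% of 876 such genes called higher and 1.05% of 1144 called lower, against 1.63% of all 32817 promoters in the table. TGACGTCA, the cyclic AMP response element, was in 3.19% of tested genes, 4.45% of those called higher, 2.19% of those called lower and 1.79% of all promoters. GCGNGGGCG, the Egr1 motif, was in 10.6%, 11.8%, 9.62% and 5.56%, and TGTTTAC, the FoxO motif, in 2.45%, 2.40%, 3.32% and 3.65%, in the same order. No motif searched contains another, and a match is a description of letters, not of binding.

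Genes for secreted growth factors and cytokines changed in both directions, with 15 of 23 called higher, 5 lower and a median of 0.93. Among the ligands of the epidermal growth factor receptor, Ereg read 227, 219 and 714 early and 3414, 2576 and 2537 late (log2 difference 3.08, SE 0.37, limma adjusted p = 0.000534). Hbegf read 922, 927 and 1815 early and 4668, 3658 and 4274 late (log2 difference 1.85, SE 0.23, limma adjusted p = 0.000558), and Tgfa rose by 0.56. The receptor gene Egfr rose as well, from 1105, 1155 and 1133 to 1921, 2697 and 2322 (log2 difference 1.02, SE 0.12). A further Egfr probe set gave 1.04, while 4 others lay between -0.08 and 0.46 and were not called.

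PDGF ligands rose under PDGF. Pdgfb, which encodes the B chain of PDGF, read 47.2, 48.5 and 49.3 early and 232, 301 and 201 late (log2 difference 2.21, SE 0.17, limma adjusted p = 5.99e-05), and Pdgfa read 630.4, 568 and 551 and 1331, 1502 and 1090.3 (log2 difference 1.15, SE 0.13). Another Pdgfb probe set gave 0.78 and was not called. Inhba, the activin subunit, read 303, 331 and 329.8 early and 1849, 1719.6 and 1579 late (log2 difference 2.40, SE 0.11, limma adjusted p = 3.31e-06). Vegfa, an angiogenic factor, read 465, 371 and 439 early and 1306, 1128 and 1285 late (log2 difference 1.54, SE 0.12). The cytokines Il6 (1.99), Clcf1 (1.73) and Il11 (1.18), the chemokines Ccl2 (1.09) and Ccl7 (1.01), and Csf1 (0.76), Fgf7 (0.93) and Tgfb1 (0.70) were called higher too. Without single arrays 3 ligand genes lost the call: Tgfa without that at 15, 30, 180 or 240 min (0.44 to 0.59), Il11 without that at 15, 180 or 240 min (0.97 to 1.14) and Fgf7 without that at 0, 15, 180 or 240 min (0.70 to 0.98). Lif, an interleukin 6 family cytokine, read 379, 428 and 684 early and 520.0, 579.7 and 614 late, and its windows overlapped (log2 difference 0.24, SE 0.20, not called), but without the 30 min array it was called higher (0.50).

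The 5 ligand genes called lower included Bmp4, a bone morphogenetic protein, which read 3737, 3461 and 3548 early and 1727, 1554 and 1881 late (log2 difference -1.06, SE 0.09, limma adjusted p = 6.70e-05). The vasoconstrictor gene Edn1 read 189, 271 and 362 early and 82.9, 103 and 123 late (log2 difference -1.34, SE 0.23). The others were Cxcl1 (-1.31), Fgf18 (-0.95) and Cxcl12 (-0.38). Cxcl1 was not called without the 15 or 30 min array (-1.41 and -0.955). Of 15 receptor tyrosine kinase genes, Egfr and Epha2 (1.13) were called higher and Pdgfra, Insr (-0.89) and Igf1r (-0.43) lower, with a median of -0.22. With the median of probe sets Igf1r gave 0.016 and was not called.

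Proteolysis genes held the largest increase in the knockout. Serpinb2, an inhibitor of plasminogen activators, read 12.1, 13.3 and 19.8 early, 179 at 60 min, 1059, 982 and 1232 late and 1019.7 at 480 min (log2 difference 5.79, SE 0.18, limma adjusted p = 2.78e-07). Mmp13, a collagenase, read 68.9, 39.2 and 71.0 early and 532, 609 and 704 late (log2 difference 3.30, SE 0.22, limma adjusted p = 2.18e-05), and Mmp10, a stromelysin, read 12.9, 15.4 and 3.23 and 51.0, 70.7 and 60.9 (log2 difference 2.19, SE 0.36), so that no early Mmp10 array passed 16. Plaur, the urokinase receptor, read 397, 367 and 486 early and 1661, 1466 and 1739 late (log2 difference 1.95, SE 0.13, limma adjusted p = 2.31e-05). F3, the tissue factor that starts coagulation, read 539.7, 494 and 846 early and 2106, 1481 and 1693 late (log2 difference 1.51, SE 0.20), and Timp1, a metalloproteinase inhibitor, read 1478, 1635 and 1540.0 and 3874, 4484 and 4499 (log2 difference 1.46, SE 0.08). These were the 6 called higher of 14 tested, and the median over the 14 was 0.26. The aggrecan-cleaving proteases were the 2 called lower: Adamts5 read 1125, 1113 and 1143 early and 395, 165 and 126 late (log2 difference -2.45, SE 0.33, limma adjusted p = 0.000861), and Adamts1 read 980.1, 872 and 1454 and 438, 183 and 174 (log2 difference -2.14, SE 0.32, limma adjusted p = 0.00165).

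Of the 6 genes that rose, 5 held the AP-1 motif TGANTCA before their RefSeq start, the exception being Timp1. Mmp10, 1 of the 5, was tested through its late arrays alone. The 5 promoters are shown for that motif. The AP-1 gene Fosl1 was higher in the same window, and any link between it and these genes was not tested. The stretches end at the base before the start and are written 5' to 3' on the strand of the gene, with the motif in capitals (RefSeq, GRCm38.p6). The Serpinb2 stretch is chr1:107511223-107511422, plus strand, before the first of 2 listed starts. The others are Mmp13 at chr9:7272394-7272513, plus strand, Mmp10 at chr9:7502222-7502341, plus strand, Plaur at chr7:24462363-24462482, plus strand, and F3 at chr3:121723377-121723536, plus strand.
Serpinb2: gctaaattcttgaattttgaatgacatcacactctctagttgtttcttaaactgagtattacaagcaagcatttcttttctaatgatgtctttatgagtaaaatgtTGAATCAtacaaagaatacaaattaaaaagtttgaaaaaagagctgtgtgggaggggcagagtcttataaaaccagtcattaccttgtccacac
Mmp13: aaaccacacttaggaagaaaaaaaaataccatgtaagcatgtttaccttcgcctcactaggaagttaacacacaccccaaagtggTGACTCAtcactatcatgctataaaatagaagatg
Mmp10: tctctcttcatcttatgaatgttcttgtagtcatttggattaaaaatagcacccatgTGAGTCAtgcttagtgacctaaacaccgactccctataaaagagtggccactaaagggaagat
Plaur: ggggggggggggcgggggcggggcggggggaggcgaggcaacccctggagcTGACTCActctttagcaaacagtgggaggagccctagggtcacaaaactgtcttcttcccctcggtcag
F3: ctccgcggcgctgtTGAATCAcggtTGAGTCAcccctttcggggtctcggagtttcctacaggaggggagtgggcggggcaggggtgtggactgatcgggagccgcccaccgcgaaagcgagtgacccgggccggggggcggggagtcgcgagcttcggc
The motif began 94 bases before the start in Serpinb2, 35 in Mmp13, 63 in Mmp10 and 69 in Plaur, and F3 held it at 146 and 135. Of 8 tested proteolysis genes with a single listed promoter, 5 held it in the 300-base window (62.5%): Mmp13, Mmp10, Plaur, F3 and Mmp3, of which Mmp3 was not called. The share was 4.86% of tested genes, 4.91% of those called higher, 4.28% of those called lower and 7.81% of all promoters, and this list was picked out among 31 after the shares were seen. Among interferon-stimulated genes, of which none was called higher, 5 of 16 promoters held the motif (31.2%).

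Many genes linked to growth arrest fell. Of 29 growth arrest and FoxO target genes tested, 15 were called lower and 1 higher, with a median of -0.70. With deposited signals 8 were called lower. Pik3ip1, an inhibitor of phosphatidylinositol 3-kinase, read 633, 618 and 472 early and 139.9, 138 and 113 late (log2 difference -2.09, SE 0.16, limma adjusted p = 5.05e-05). Sesn1, a stress-induced inhibitor of mTORC1, read 1436, 1437 and 1238 early and 382, 408 and 328 late (log2 difference -1.87, SE 0.12, limma adjusted p = 2.18e-05). Ccng2, a cyclin linked to cell cycle exit, read 1494, 1338 and 1522 early and 466, 394 and 360.2 late (log2 difference -1.83, SE 0.12, limma adjusted p = 2.65e-05). In each of these genes every late array lay under every early one, and the signal was already lower at 60 min (281, 1109 and 869).

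Klf15, a Krüppel-like factor of starvation and glucocorticoid responses, read 266, 297 and 232 early, 11.0, 45.0 and 37.3 late and 127 at 480 min (log2 difference -3.06, SE 0.36, limma adjusted p = 0.000485). Txnip, which restrains glucose uptake, read 1808, 1553 and 882 early and 229.9, 450.5 and 473 late (log2 difference -1.87, SE 0.31), and Gas1, a growth arrest gene, read 1206, 943 and 1234 and 376, 376 and 378 (log2 difference -1.56, SE 0.13). Foxo3 (-0.77) and Foxo4 (-0.78), which encode the factors themselves, Trib2 (-1.52), Fbxo32 (-0.78), Sesn3 (-0.70) and the proapoptotic Bmf (-0.83) were called lower as well. The Bmf call was lost without the 0 or 15 min array (-0.76 and -0.71) and the Foxo4 call without that at 0, 15, 180 or 240 min (-0.77 to -0.56). Depp1, another FoxO target outside the list, read 219, 166 and 236 early and 45.9, 30.8 and 30.1 late (log2 difference -2.39, SE 0.21, limma adjusted p = 9.71e-05).

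Most called cell cycle genes were lower, inhibitors included. Cdkn1b, the inhibitor p27, read 711, 727 and 686 early and 327, 394 and 339.9 late (log2 difference -1.0, SE 0.12, limma adjusted p = 0.000478), and the inhibitors Cdkn2c (-0.88) and Cdkn2d (-0.67) and the pocket proteins Rbl1 (-0.85) and Rbl2 (-0.68) fell with it, as did E2f1 (-0.61). Rbl2 was not called without the 0, 30, 180 or 240 min array (-0.625 to -0.545), nor E2f1 without that at 0, 15 or 180 min (-0.60 to -0.54). Cdkn1a, the inhibitor p21, read 1914, 2308 and 3215 early and 4170.2, 3344 and 3269 late (log2 difference 0.56, SE 0.17, limma adjusted p = 0.0355), a call that was lost without the 0, 15, 120, 180 or 240 min array, with differences of 0.39 to 0.62. Ccnd1, cyclin D1, read 4888, 5172 and 4789.9 early and 4361, 5307 and 5889 late and was not called (log2 difference 0.06, SE 0.10). Over 19 G1 genes, 6 were called lower and 1 higher (median -0.13), and with deposited signals none was called lower.

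All 24 mitosis genes had a negative difference, with a median of -0.49 against -0.08 over all genes, and 12 were called lower. Cdc20, the activator of the anaphase-promoting complex, read 497, 608 and 533 early, 309.9, 318 and 314 late and 211 at 480 min (log2 difference -0.78, SE 0.12, limma adjusted p = 0.00185). Mki67, the proliferation marker, read 523, 633 and 574 early, 386, 407 and 351 late and 216 at 480 min (log2 difference -0.59, SE 0.12). At 480 min, 23 of the 24 stood at their lowest signal of the 8 times, against 21.2% of all genes. Without the 0, 15, 30, 180 or 240 min array 3, 6, 4, 4 and 5 genes were called, and with deposited signals 1. Rfc3 (-0.83) and Orc6 (-0.48, not called without the 180 min array, -0.46) were among the DNA replication genes called lower. Of 26 tested, 7 were called lower, against 14.3% of all genes, with a median of -0.34. Without the 0, 15, 30, 180 or 240 min array that count was 2, 4, 3, 3 and 3, without the 120 min array 11, and with deposited signals 0.

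Genes for making ribosomes rose almost together. All 40 ribosome biogenesis and RNA polymerase I genes had a positive difference, with a median of 1.01 against -0.08 over all genes. Of the 40, 34 were called higher and none lower. The count was 30 to 36 with any 1 array left out and 33 with deposited signals. Grwd1, a histone-binding assembly factor, read 200.3, 244 and 208 early, 221 at 60 min and 650.0, 1036 and 1082 late (log2 difference 2.03, SE 0.19, limma adjusted p = 0.000145). Tsr1, which matures the small subunit, read 1006, 1277 and 994 early and 2909, 3257 and 3310.1 late (log2 difference 1.54, SE 0.11, limma adjusted p = 4.49e-05). Rrp1b, a nucleolar processing factor, read 205, 238 and 188 early and 532, 698 and 704 late (log2 difference 1.59, SE 0.15, limma adjusted p = 0.000153), and Gnl3, a nucleolar GTPase, read 1127, 1224 and 1310.0 and 2417, 2382 and 2682 (log2 difference 1.03, SE 0.09, limma adjusted p = 0.000106). Nop58, a core protein of the guide RNA particles that methylate ribosomal RNA, read 201, 199 and 268 early and 636, 762 and 1037 late (log2 difference 1.83, SE 0.19), and the polymerase subunit Polr1b read 96.3, 95.9 and 108 and 229.7, 327 and 382 (log2 difference 1.57, SE 0.19). In the course, 38 of the 40 had their highest signal at 480 min, against 19.9% of all genes tested.

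Nop2, an RNA methyltransferase of the large subunit, read 322, 394 and 346 early and 758, 1027 and 1129 late (log2 difference 1.43, SE 0.16). Its promoter is shown for the letters CACGTG, the E-box bound by Myc and related factors, which lie 60 to 55 bases before the start (chr6:125131783-125131882, plus strand, GRCm38.p6).
Nop2: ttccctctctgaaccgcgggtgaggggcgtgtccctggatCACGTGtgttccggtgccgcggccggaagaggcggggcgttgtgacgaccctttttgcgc
Of 32 ribosome biogenesis genes with a single promoter, 9 held CACGTG in the 300-base window (28.1%), against 10.1% of tested genes, 13.1% of those called higher, 11.5% of those called lower and 7.15% of all promoters. The cytosolic ribosomal proteins did not rise with the genes that assemble them. None of 24 tested was called, 1 had an unadjusted p under 0.05 in limma, their median was 0.00, and their differences ran from -0.13 to 0.29. Rps20 read 8662, 8472 and 8756 early and 8756, 9328 and 8900.1 late, and Rpl14 read 260.1, 308 and 262 and 317, 367 and 333.

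Amino acid supply followed the same late course. Of 36 genes for amino acid transport and synthesis, tRNA charging and the ATF4 pathway, 22 were called higher and none lower, with a median of 0.81. Atf4, the factor that induces many of them, read 2074, 1998 and 2988 early and 4777, 4402 and 5236 late (log2 difference 1.05, SE 0.14, limma adjusted p = 0.000821). Slc7a1, a transporter of cationic amino acids, read 1005, 988 and 1134 early, 2530.4 at 60 min and 3784, 3904 and 4239 late (log2 difference 1.93, SE 0.09, limma adjusted p = 3.31e-06). The remaining large increases came later than 60 min. Mthfd2, of the mitochondrial folate cycle, read 205, 212 and 135 early, 193 at 60 min and 784, 1696 and 2374 late (log2 difference 2.99, SE 0.34, limma adjusted p = 0.000388). Trib3, a pseudokinase that restrains ATF4, read 73.4, 61.6 and 58.6 early, 61.0 at 60 min and 229, 902 and 1255 late (log2 difference 3.22, SE 0.49, limma adjusted p = 0.00175).

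Asns, asparagine synthetase, read 209, 239 and 248 early, 541, 1147 and 1957 late and 2949.8 at 480 min (log2 difference 2.18, SE 0.36). Chac1, which degrades glutathione, read 536, 521 and 558 early, 1658, 2585 and 2865 late and 869 at 480 min (log2 difference 2.09, SE 0.18, limma adjusted p = 9.00e-05), so that it had turned down while Asns was still rising. The serine synthesis genes Phgdh (0.59), Psat1 (1.29) and Psph (1.20) and the synthetases Cars (1.53), Tars (1.09), Iars (0.87), Gars (0.82) and Aars (0.81) were called higher. Phgdh was not called without any single array but that at 120 min (0.42 to 0.68), and Psph was not called without the 15, 30 or 180 min array (1.15 to 1.18). Of the 36 genes, 24 had their highest signal at 480 min.

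Of 23 members with a single promoter, 11 held TGATGNAA, the core of the C/EBP-ATF response element that ATF4 binds (47.8%). The share was 2.13% of tested genes, 3.20% of those called higher, 1.84% of those called lower and 3.97% of all promoters. The list was made in part of known ATF4 targets, so the motif was not independent of its choice. The stretches before 5 of the starts are shown with the motif in capitals, which reads TTGCATCA where it lies on the opposite strand (RefSeq, GRCm38.p6). They are Asns at chr6:7693210-7693329, minus strand, Chac1 at chr2:119351042-119351241, plus strand, Aars at chr8:111033712-111033841, plus strand, Nupr1 at chr7:126625471-126625600, minus strand, and Herpud1, of the chaperone list, at chr8:94386299-94386428, plus strand.
Asns: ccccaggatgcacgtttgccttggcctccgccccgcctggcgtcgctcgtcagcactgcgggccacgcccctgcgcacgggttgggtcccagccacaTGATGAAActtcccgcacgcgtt
Chac1: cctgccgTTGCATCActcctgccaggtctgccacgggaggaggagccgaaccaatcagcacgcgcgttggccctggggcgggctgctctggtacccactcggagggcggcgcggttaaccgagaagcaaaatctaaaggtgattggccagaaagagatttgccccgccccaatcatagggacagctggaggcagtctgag
Aars: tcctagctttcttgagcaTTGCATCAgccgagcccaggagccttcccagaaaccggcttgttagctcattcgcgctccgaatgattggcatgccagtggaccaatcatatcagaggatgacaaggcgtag
Nupr1: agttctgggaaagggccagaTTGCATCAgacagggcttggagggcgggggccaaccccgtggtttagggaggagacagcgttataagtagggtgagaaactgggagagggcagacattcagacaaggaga
Herpud1: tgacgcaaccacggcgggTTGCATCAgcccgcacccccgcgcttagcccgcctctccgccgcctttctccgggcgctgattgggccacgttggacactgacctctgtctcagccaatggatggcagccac
The motif began 23 bases before the start in Asns, 193 in Chac1, 112 in Aars, 110 in Nupr1 and 112 in Herpud1. Their differences were 2.18, 2.09, 0.81, 0.40 and 0.65, all called higher, but these 5 were picked for display. How many of the 11 members with the motif were called is not given here. In the chaperone list 1 of 16 promoters held it (6.25%). Among heat shock and endoplasmic reticulum chaperones, 10 of 23 were called higher and none lower, with a median of 0.18. Hspa1a, an inducible HSP70, read 360.3, 337 and 582 early and 1108, 1517 and 1926 late (log2 difference 1.83, SE 0.23, limma adjusted p = 0.000692), and the other 9 rose by 0.18 to 0.68. The near-identical genes Hspa1a and Hspa1b share sequence, so their probe sets may not separate them.

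**Figure D3:**
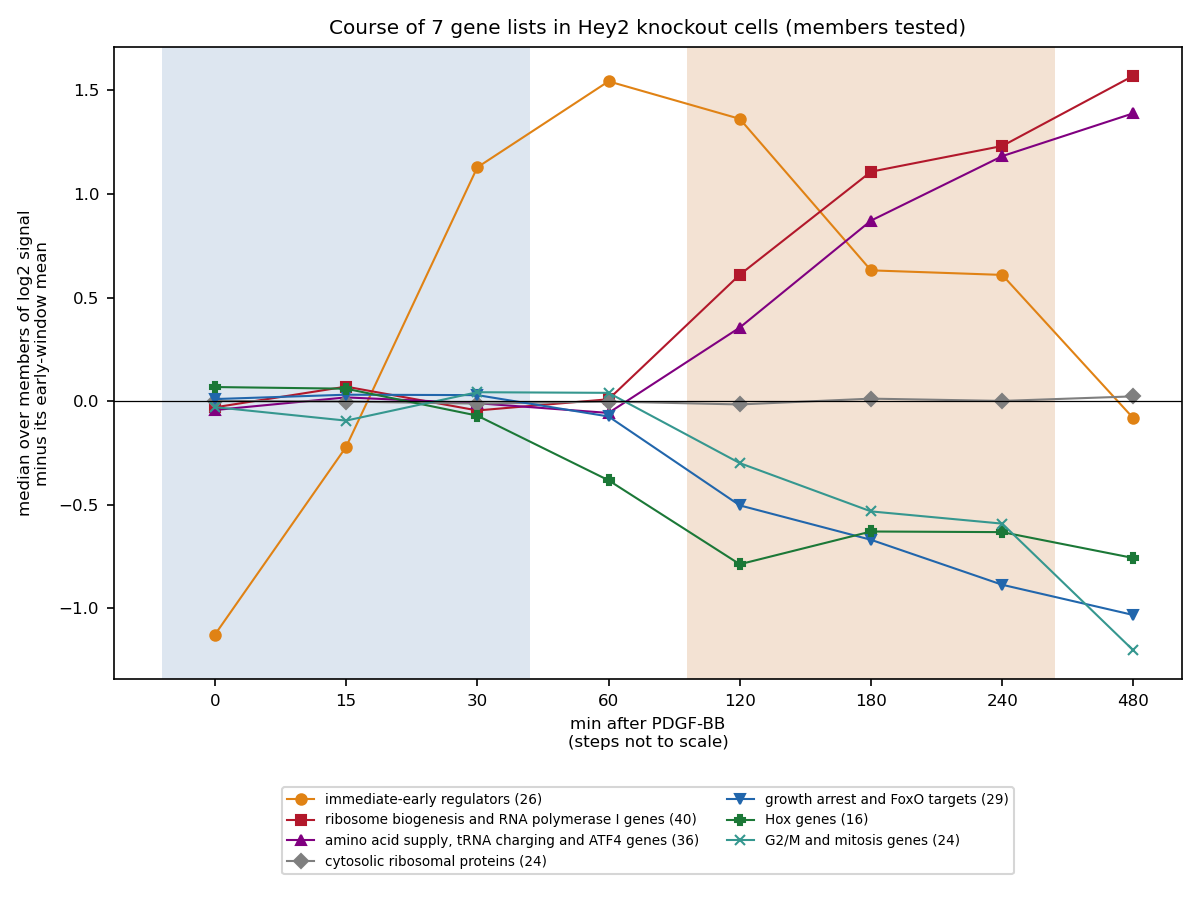
Median over the tested members of 7 gene lists of the log2 signal minus its early-window mean, in the 8 knockout arrays against time after PDGF-BB (steps not to scale); shading marks the early (blue) and late (orange) windows. Immediate-early regulators reach their highest median at 60 min, ribosome biogenesis and amino acid supply genes climb from 120 to 480 min, ribosomal proteins stay between -0.02 and 0.02, and the other lists descend.

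Several targets of bone morphogenetic proteins fell, as Bmp4 did. Id3, an inhibitor of helix-loop-helix factors, read 2991, 3449.7 and 3589 early and 946, 834 and 381 late (log2 difference -2.31, SE 0.28, limma adjusted p = 0.000493). Id2 read 1017, 905 and 1481 early and 385, 309 and 199.9 late (log2 difference -1.93, SE 0.24), and Id1 read 2902, 3047 and 3062 and 1546, 1618 and 1393 (log2 difference -0.98, SE 0.08, limma adjusted p = 8.15e-05). Atoh8, a helix-loop-helix factor and the largest decrease of all named genes in the knockout, read 403, 552 and 498 early and 55.9, 85.4 and 24.9 late (log2 difference -3.15, SE 0.33, limma adjusted p = 0.00026). The inhibitory Smad gene Smad6 (-1.11), the pseudoreceptor Bambi (-0.62) and Tgfbr2 (-0.21) were the other members called lower. The Bambi call was lost without any single array but that at 120 min (-0.68 to -0.53) and the Tgfbr2 call without any but that at 240 min (-0.23 to -0.17). The members called higher are linked to TGF-beta: Tgif1, a Smad corepressor (1.63), and Pmepa1, a TGF-beta-induced membrane protein (0.97). Of 18 members 7 were called lower and 2 higher, with a median of -0.17. Smad7 (0.06) and Skil (0.30) did not pass the test.

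The Hox genes, which specify position along the body axis, fell for the most part. All 16 tested had a negative difference, 10 were called lower, and the median was -0.71 against -0.08 over all genes. Hoxa5 read 1074, 1110.0 and 864 early, 543 at 60 min and 340.2, 427 and 354 late (log2 difference -1.43, SE 0.14, limma adjusted p = 0.000169), and Hoxa2 read 156, 172 and 138 and 61.7, 66.6 and 49.8 in the windows (log2 difference -1.32, SE 0.17, limma adjusted p = 0.00065). Hoxb3 read 654, 589 and 610.3 early and 293, 344 and 337 late (log2 difference -0.92, SE 0.12). The count was 8 to 10 with any 1 array left out and 3 with deposited signals. In the Notch list, to which Hey2 belongs, 3 of 20 were called lower and none higher, near the share of all genes: Rbpj, the DNA-binding effector of Notch (-0.67), Hes6 (-0.68) and the ligand Jag1 (-0.36). The Jag1 call was lost without the 0, 15, 30, 180 or 240 min array (-0.39 to -0.26). Hey1 and Heyl, the relatives of Hey2, read 38.0, 37.2 and 23.9 and 15.1, 19.5 and 22.1 early and 71.7, 59.2 and 35.1 and 12.2, 13.1 and 24.3 late, and neither was called, though Hey1 was called higher without the 240 min array (0.91).

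Genes regulated by NF-kappaB rose in part, with 9 of 19 called higher, 2 lower and a median of 0.26; without the 180 min array 5 were called higher. Cd44, the hyaluronan receptor, read 414, 472 and 642 early and 2835, 3546 and 4203 late (log2 difference 2.79, SE 0.18, limma adjusted p = 2.10e-05). Has1, a hyaluronan synthase of the matrix list, read 5.94, 44.4 and 29.3 early and 218, 292 and 224 late (log2 difference 3.23, SE 0.45, limma adjusted p = 0.00115). Bcl3, a nuclear IkappaB protein, read 47.9, 52.1 and 72.3 early, 145, 253 and 199.6 late and 37.2 at 480 min (log2 difference 1.70, SE 0.23, limma adjusted p = 0.000842). Relb (1.07), Nfkb2 (1.08), the feedback inhibitor Tnfaip3 (0.91) and Ptgs2, the inducible cyclooxygenase (1.69), rose too. The Ptgs2 call was lost without any single array but that at 30 min (1.26 to 1.74). Another Nfkb2 probe set gave 0.59 and was not called. Of 25 interferon-stimulated genes 10 were called lower and none higher, with a median of -0.48. Ifit2 read 491, 449 and 515 early and 185, 126 and 123 late (log2 difference -1.73, SE 0.17, limma adjusted p = 0.000171) and Ifit3 read 738, 846 and 703 and 317, 212 and 139 (log2 difference -1.83, SE 0.25). Without the 0, 15, 30, 180 or 240 min array the interferon count was 3, 3, 5, 5 and 5, and with deposited signals 3.

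Clock genes changed in both directions, with 4 of 16 called higher, 5 lower and a median of -0.24. Over all genes tested 10.8% were called higher and 14.3% lower. Arntl, the partner of Clock, read 135, 135 and 187 early and 604, 516 and 437 late (log2 difference 1.74, SE 0.17, limma adjusted p = 0.000188), and Cry1 rose by 1.15. Dbp, an output factor that Arntl and Clock induce, read 441, 559 and 488 early and 132, 121 and 99.8 late (log2 difference -2.03, SE 0.15, limma adjusted p = 5.05e-05), and Per3 (-1.42) and Tef (-1.05) were lower. With the median of all probe sets, Per3 (-0.47) and Tef (-0.41) were not called. Another Arntl probe set gave 0.58 and was not called. Without the 15 or 240 min array 2 clock genes were called higher, and without any single array but that at 120 min 3 were called lower. Noct, a deadenylase-related gene of the mRNA decay list, read 202, 243 and 312 early, 1694 at 60 min and 3119, 1981 and 1536 late (log2 difference 3.07, SE 0.24, limma adjusted p = 6.33e-05). In that list 4 of 17 were called higher and 1 lower, beside the same shares of all genes, with a median of 0.16. Without the 0 or 15 min array 2 of them were called higher.

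Of 21 contractile smooth muscle genes tested, 7 were called higher and 1 lower, with a median of 0.22. Of the 7, 2 (Cnn1 and Actg2) passed the filter only through the late arrays, where they were high. Tagln, an actin-binding protein, read 787, 781 and 722 early, 1336, 1434 and 1808 late and 2368 at 480 min (log2 difference 0.98, SE 0.12, limma adjusted p = 0.000613). Acta2, smooth muscle alpha actin, read 5203, 5504 and 5203 early and 6054, 6257 and 6205 late (log2 difference 0.22, SE 0.05, called higher), but it was not called without the 0 min array (0.21) or with deposited signals (0.46). Cnn1, calponin, read 2.94, 10.2 and 6.81 early and 46.2, 43.5 and 34.0 late (log2 difference 2.04, SE 0.33, limma adjusted p = 0.00241), so that no early array passed 16. The summed signal of the 23 contractile genes on the array was 38696 to 39805 in the early arrays and 44880.2 to 47102 in the late ones. Mylk, myosin light chain kinase, was the member called lower (-0.58), a call lost without any single array but that at 120 min (-0.63 to -0.465).

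Among the SRF and MRTF targets of the actin cytoskeleton, 9 of 27 were called higher and 1 lower, with a median of 0.14. Over all genes tested 10.8% were called higher and 14.3% lower. Flnc, filamin C, read 609.5, 578 and 484 early and 1492, 1718 and 1789 late (log2 difference 1.57, SE 0.12, limma adjusted p = 5.99e-05), and Vcl, vinculin, read 6194, 5831 and 6131 and 8882, 8443 and 9078 (log2 difference 0.54, SE 0.05, limma adjusted p = 0.000116). Enah, an actin elongation factor, rose by 1.04 on its brightest probe set, but by 0.28 and without a call as the median of its probe sets. The YAP target Ankrd1 read 1243, 1343 and 2233 early and 4255, 3018 and 3908 late (log2 difference 1.25, SE 0.20), and the YAP list as a whole had 4 of 20 called higher, 1 lower and a median of 0.00. In the extracellular matrix list 7 of 31 were called higher and 4 lower, with a median of -0.03. The share called lower was near the 14.3% of all genes. The basement membrane genes Col4a1 (0.94), Col4a2 (0.57), Nid1 (1.03) and Lamc1 (0.83) were among those that rose, and the fibrillar collagens Col3a1 (-0.57) and Col1a2 (-0.30) among those that fell. With deposited signals Col3a1 (-0.25) and Col1a2 (-0.02) were not called. Another Col4a1 probe set gave 0.62 and was not called. Without the 0 or 180 min array 2 matrix genes were called lower, and without the 120 min array 7.

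The epithelial and mesothelial list split, with 4 of 15 called higher, all keratins, 4 lower and a median of -0.07. Krt19 read 1116, 1213 and 1229 early and 1967, 2786 and 3275 late (log2 difference 1.14, SE 0.16, limma adjusted p = 0.0011), and Krt8 read 33.7, 32.6 and 34.0 and 70.8, 123 and 123 (log2 difference 1.49, SE 0.23, limma adjusted p = 0.00185). Krt14 (1.06) and Krt18 (1.39) were also called higher, while Cldn1 (-0.93, tested only through the early arrays), Lrrn4 (-0.42), Upk3b (-0.26) and Bnc1 (-0.23) were called lower. The summed signal of the 15 markers was 19917 to 20625 early and 19207 to 21107 late, so the whole list overlapped between windows. Without the 0, 30, 180 or 240 min array only 1 of them was called lower. Krt18 was not called without the 0, 15, 180 or 240 min array (1.04 to 1.41), Cldn1 without that at 180 or 240 min (-0.78 and -0.93), and Bnc1 (-0.24 to -0.19) and Upk3b (-0.25 to -0.22) without that at 0, 30, 180 or 240 min.

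Krt13, which is outside that list, read 5.73, 4.44 and 9.74 early and 72.2, 147 and 145 late (log2 difference 3.42, SE 0.32, limma adjusted p = 0.000136). It was tested through its late arrays alone, and without any one of these another probe set stood for it, with 0.81 to 1.01 and no call. The squamous epithelial genes Sprr1a, a cornified envelope protein, and Pkp1, a desmosomal plaque protein, rose too. Sprr1a read 46.4, 75.1 and 67.3 early, 486, 592 and 681 late and 825 at 480 min (log2 difference 3.14, SE 0.19, limma adjusted p = 2.10e-05). Pkp1 read 126, 176 and 158 early, 754, 1748 and 2195 late and 417 at 480 min (log2 difference 3.19, SE 0.33, limma adjusted p = 0.000225).

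Markers of other cells differed in level. Of 11 adventitial fibroblast markers, 9 were above 16 in all 6 arrays, as were 3 of 8 adipocyte, 5 of 11 leukocyte and 1 of 12 endothelial markers. Among endothelial markers, Pecam1, Cdh5, Tie1 and Vwf were never above 16, yet Flt1, a receptor for Vegfa, read 5.62, 9.43 and 17.8 early and 60.9, 93.5 and 74.2 late (log2 difference 2.41, SE 0.32, limma adjusted p = 0.00079). Other Flt1 probe sets gave 2.81 and 1.59, called, and 0.45, not called. The summed endothelial signal, Flt1 included, was 121 to 146 early and 195 to 228 late. Of 3 endothelial markers tested, only Flt1 was called. Among leukocyte markers, Ptprc, Itgam, Cd3e and Tyrobp were never above 16, and Csf1r, the receptor for Csf1, read 55.4, 47.8 and 44.4 early and 286, 655 and 747 late (log2 difference 3.28, SE 0.31, limma adjusted p = 0.000135). Another Csf1r probe set gave 3.01 and the third 0.08, not called. The leukocyte sum, Csf1r included, ran from 849 to 907 early and from 965 to 1421 late. Of 6 leukocyte markers tested, only Csf1r was called, 4 had a negative difference, and the median was -0.18. Fibroblast markers summed to 16463 to 17433 early and 14922 to 16279 late, and adipocyte markers to 6572 to 6768 and 5279 to 6091. In bulk RNA fewer cells of a type and less RNA per cell cannot be told apart.

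The metabolic lists changed in both directions, as all genes tested did (10.8% called higher and 14.3% lower). Hk2, hexokinase 2, read 345, 342 and 474 early and 1733, 2032 and 1825 late (log2 difference 2.27, SE 0.14, limma adjusted p = 2.10e-05), and Slc2a1, the glucose transporter GLUT1, read 1515, 1587 and 1683 and 2966, 3409.8 and 2737 (log2 difference 0.92, SE 0.09, limma adjusted p = 0.000219). In the hypoxia and glycolysis list 5 of 23 rose and 3 fell, with a median of 0.01. Without the 0, 15, 180 or 240 min array none was called lower. In the cholesterol and fatty acid list 5 of 27 were called in each direction, with a median of -0.15. Cyp51, of cholesterol synthesis, read 839, 757 and 796 early, 1414, 1412 and 1505 late and 759 at 480 min (log2 difference 0.85, SE 0.09), and the desaturase Fads1 fell by 0.48, a call lost without the 0 min array (-0.425). Without the 0, 15, 120 or 240 min array 1, 2, 2 and 3 cholesterol genes were called higher, and without the 0 or 180 min array 2 and 3 were called lower.

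Several of the largest changes lay outside the lists. Wnt2, a Wnt ligand, read 14.7, 1.96 and 1.23 early, 1.41 at 60 min and 83.8, 159 and 132 late (log2 difference 3.75, SE 0.44, limma adjusted p = 0.000435), and Glis1, a Krüppel-like zinc finger factor, read 4.89, 11.5 and 2.86 and 79.8, 130.1 and 93.3 in the windows (log2 difference 3.28, SE 0.33, limma adjusted p = 0.000188). Both were among 35 genes that rose with no early array above 16, for which the size of the difference depends on the offset. Klhdc8a read 69.9, 68.2 and 76.0 early and 387, 836 and 982 late (log2 difference 3.17, SE 0.29). Hivep3, a zinc finger regulator of transcription, read 197, 216 and 233 early and 1887, 2091 and 1643 late (log2 difference 3.09, SE 0.13, limma adjusted p = 2.53e-06). Its other probe sets gave 0.93, called, and 0.50, not called.

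Among the decreases, Fhod3, a formin of muscle, read 186, 177 and 202 early and 50.0, 24.6 and 18.6 late (log2 difference -2.52, SE 0.28, limma adjusted p = 0.000333). Etfbkmt, a mitochondrial lysine methyltransferase, read 709, 658 and 618 early and 175, 93.7 and 117 late (log2 difference -2.36, SE 0.20), and Noxo1, an organizer of NADPH oxidase, read 37.9, 31.0 and 33.9 and 2.59, 3.62 and 3.42 (log2 difference -2.28, SE 0.32). H3f3b, which encodes histone H3.3, read 756, 410.1 and 109.9 early and 66.8, 77.7 and 42.8 late, so that most of its fall came within the first 30 min (log2 difference -2.34, SE 0.55, limma adjusted p = 0.0134), and without the 15 min array it was not called (-2.17). Rab3il1 (-2.04), Shisa2 (-2.03) and Fam107a (-2.03) completed the 15 largest decreases. Noxo1 and Rab3il1 were among 20 genes that fell with no late array above 16. These were tested through their early arrays alone, and the size of the difference depends on the offset.

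The 60 and 480 min arrays entered the normalization but not the test, and they were used to describe the course. The called genes were chosen with the same early arrays that these points are set against. Their shares below can therefore exceed those of all genes through that choice alone. At 60 min the called genes had covered little of the way from the early to the late mean, with a median fraction of 0.20 for genes called higher and 0.22 for those called lower. At 480 min the fractions were 0.95 and 1.11. The 60 min signal was above all early arrays for 52.5% of the genes called higher and below them for 56.4% of those called lower, against 21.9% and 35.4% of all genes tested. At 480 min the shares were 87.1% and 94.0%, against 33.7% and 41.6%. Within the late window 51.6% of the genes called higher had their highest signal at 240 min and 21.5% at 120 min, against 34.1% and 32.8% of all genes. Of the genes called lower, 53.1% had their lowest signal at 240 min, against 36.3% of all genes. Nr4a3, Klf10, Dusp10 and Noct were lower at 480 min (71.0, 423, 276 and 769) than in any late array, while Serpinb2 (1019.7), Mmp13 (602) and Cd44 (3912) lay within the range of their late arrays.

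The last comparison asked where the knockout response differed from that of wild-type cells over the same 6 times. Before normalization the wild-type 30 min array had a 2% trimmed mean of 81, the lowest of the 16 arrays. Its ratio of 3' to 5' signal was 3.88 for Actb. The wild-type early mean rests in part on this array, and the count without it is given below. Of 13913 genes tested over 12 arrays, 110 were called (0.791%), with the knockout change above the wild-type change for 43 and below it for 67. For 99 of the 110 (90.0%) the change was smaller in size in the knockout, and for 22 (20.0%) it had the opposite sign, against 66.9% and 22.5% of all genes tested. Lif read 379, 428 and 684 early and 520.0, 579.7 and 614 late in the knockout, and 51.3, 81.7 and 167 early and 874, 1151 and 1147 late in the wild type. The knockout minus wild-type change was -3.24, SE 0.45, limma adjusted p = 0.0112. The early windows thus differed already, and the same held for Spry4, which read 71.4, 57.6 and 86.4 early and 279, 394 and 404 late in the wild type (-2.36, SE 0.29, limma adjusted p = 0.00734), and for Piezo1, a mechanosensitive channel, with 706, 807 and 878 and 2025, 2129 and 2113 (-1.27, SE 0.14, limma adjusted p = 0.00437).

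Acta1, skeletal alpha actin, read 16.7, 26.3 and 19.8 early and 32.1, 28.2 and 38.5 late in the knockout and 30.1, 43.2 and 47.9 and 384, 359.6 and 311 in the wild type (-2.43, SE 0.30, limma adjusted p = 0.00734), with early readings near the filter in both. Frmd4b read 2221, 2217 and 2289 early and 1679, 2505 and 2219.9 late in the knockout, against 2301, 2048 and 2074 and 589, 823 and 535 in the wild type (1.65, SE 0.22, limma adjusted p = 0.00903). Ddit4l, an inhibitor of mTORC1, fell in the knockout from 792, 839 and 816 to 413, 466 and 511 and in the wild type from 415, 417 and 356 to 83.6, 76.0 and 58.3 (1.57, SE 0.20, limma adjusted p = 0.00777). Larp1b (-1.34) and Hivep3 (-1.34) completed the 8 genes with the smallest p, but with the median of all probe sets Larp1b (-0.47) and Hivep3 (0.01) were not called.

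Of the list members that changed in the knockout, Pdgfb (-1.76), Plaur (-1.46), Timp1 (-1.01), Flnc (-0.84), Krt19 (-1.47), Col4a1 (-0.80) and Pmepa1 (-0.96) rose by less than in the wild type, each on its brightest probe set. Pik3ip1 (1.31), Sesn1 (1.04) and Ccng2 (1.06) fell by less. Hey2 read 101, 102 and 113 early and 14.0, 19.3 and 16.6 late in the wild type, a change of -2.36 beside -0.43 in the knockout (1.93, SE 0.36, limma adjusted p = 0.0258). No member of the ribosome biogenesis, ribosomal protein, amino acid supply, immediate-early or mitosis lists was called for a different response. Their median changes in the wild type were 1.14, 0.01, 0.74, 1.40 and -0.61, beside 1.01, 0.00, 0.81, 0.80 and -0.49 in the knockout, differences that were not tested. For genes that moved steeply within a window the difference was poorly measured, with an SE of 1.44 for Nr4a3 and 1.19 for Fos. The absence of calls in these lists therefore does not show an equal response. Members of these lists were not counted in the fit that pairs knockout and wild type by time. The count of 110 was not stable. It was 33, 36, 38, 72, 18 and 56 without the knockout array at 0, 15, 30, 120, 180 or 240 min, and 35, 25, 60, 341 and 48 without the wild-type array at 0, 15, 30, 120 or 180 min. It was 594 with time as a block and 1 with deposited signals.

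**Figure D4:**
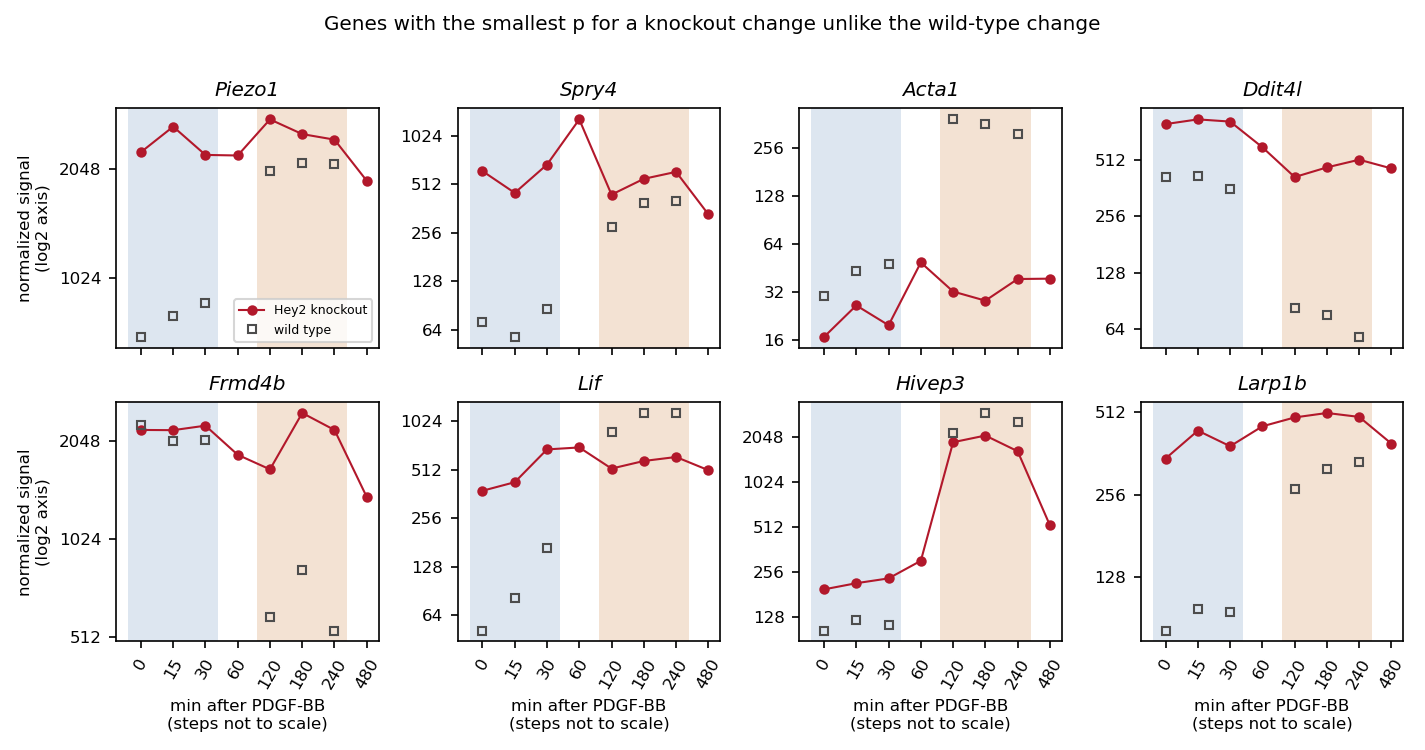
Normalized signal (log2 axis) against time after PDGF-BB (steps not to scale) for the 8 genes with the smallest p for a different response; red points and lines are the 8 knockout arrays and open squares the 6 wild-type arrays of the comparison, with the early window shaded blue and the late window orange. Piezo1, Spry4, Lif, Larp1b, Ddit4l and Hivep3 are already higher in the knockout in the early window, and Acta1 is lower there. Frmd4b parts in the late window, where Acta1 lies farther apart than early.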

How the data were processed

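RNA of each culture was hybridised to one-colour Affymetrix mouse arrays of 45101 probe sets, 1 array per genotype and time. The authors deposited linear intensity values made with MAS5, per the submitters' processing notes; no version is named there, and depth on arrays is limited by their number. Of the probe sets, 64 were controls, 34945 had 1 gene symbol in the platform annotation, 932 several and 9160 none, and 34741 matched RefSeq by gene ID; only probe sets with 1 symbol were named.

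The deposited intensity values of all 16 arrays were quantile normalized, 4.856 (the 20th percentile) was added and log2 taken. Genes above 16 (the 40th percentile) on 3 arrays were kept and the brightest probe set stood for each gene. limma 3.58.1 in R 4.3.3 fitted late minus early with an intensity trend, over 6 knockout arrays (4 residual degrees of freedom) or 12 arrays for the difference from wild type (8), with Benjamini-Hochberg adjustment over all genes. The procedure was tested on simulated data with independent noise in each array and constant shifts. Trends within a window were not simulated, so that test says nothing about them. Genes named by rule were the 15 largest separated increases and decreases, up to 4 members of each list by p, 10 preset genes including Hey2, and the 8 smallest p for the difference; further list members were named after their values were seen. The comparison and the lists were chosen with earlier results of these data known. Promoter sequences came from RefSeq (GRCm38.p6). Alternatives changed the scaling, offset, filter, probe set rule, variance model and arrays.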

Additional observations from a re-analysis of the deposited data

Results flagged for a closer look

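For 8 genes the late minus early change differed between the knockout and the wild type by a test of the difference itself (limma, 12 arrays), given here as knockout minus wild-type change on the log2 scale. It was -1.27 for Piezo1, -2.36 for Spry4, -2.43 for Acta1, 1.57 for Ddit4l, 1.65 for Frmd4b, -3.24 for Lif, -1.34 for Hivep3 and -1.34 for Larp1b. The changes in the knockout alone were 0.12 for Piezo1, -0.11 for Spry4, -0.09 for Frmd4b and 0.24 for Lif, none of them called. With deposited signals 1 gene was called for the difference.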

How the results depend on the processing

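The 3212 genes called in the knockout became 1304 with signals as deposited, of which 1210 were shared, and 62 (49 higher, 13 lower) when tested against a 2-fold change. Genes called lower numbered 215 with deposited signals. Leaving out 1 array gave 1861 to 3479 called, 879 to 1499 higher and 925 to 1980 lower. The 110 genes called for a different response became 1 with deposited signals (211 at an unadjusted p under 0.05 in limma), 51 with the median of probe sets, 13 without the intensity trend, 0 against a 2-fold change (48 at an unadjusted p under 0.05) and 594 with time as a block; without 1 array they numbered 18 to 341. Signs turned with deposited signals for Lpl (0.042), Bnc1 (0.043), Tgfbr2 (0.076) and Upk3b (0.035), and with the median of probe sets for Igf1r (0.016), Ptpn14 (0.30), Rc3h2 (-0.31) and the Hivep3 difference (0.009). The cause of these shifts was not tested. Over single genes and alternatives, 3913 values kept direction and side of the threshold, 458 lost the call, 26 gained one and 8 turned. Within a genotype no paired analysis was possible because each array is a different time and the labels give no replicate numbers. Knockout and wild-type arrays could be paired only by time. That fit, with time as a block, called 594 genes for a different response in place of 110. Probe sets near 16 have signals close to background, which limits their fold changes.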

Other observations

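Several genes called lower were lower at 60 min than in any late array of the knockout. Id1 read 837 at 60 min and 1546, 1618 and 1393 late, Hoxa3 read 166 and 230.4, 273 and 217, and Hoxa9 read 645 and 700.5, 975 and 780.0. These genes were picked out after their values were seen, and the 60 min point is 1 array.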
